A study of Mus musculus with 39 samples.

Results

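Insulin-like growth factors, their receptors and their binding proteins were followed in the transcriptome of the regenerating mouse sciatic nerve. The 10 genes are the ligands Igf1 and Igf2, the receptors Igf1r and Igf2r, and the binding proteins Igfbp2, Igfbp3, Igfbp4, Igfbp5, Igfbp6 and Igfbp7. They were found by gene symbol among the 55573 genes of the count files, each symbol matched 1 identifier, and all 10 were among the 18442 genes that passed the filter on low counts.

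The libraries were made from the distal sciatic nerve endoneurium, the tissue inside the perineurial sheath, which had been stripped off. Lepr-ctrl mice were Leprfl/fl, and Lepr-cKO mice were Leprfl/fl::Dhh-Cre, so both genotypes carried the floxed leptin receptor alleles and differed in Dhh-Cre, which drives recombination in Schwann cells from the Dhh regulatory sequence. Mice were on a C57BL/6 background, of both sexes and 2 to 4 months old, the nerve of 1 side was crushed (injured) and the contralateral nerve was left intact (healthy), and tissue was taken at 2 or 4 weeks post crush (wpc) from different mice. At 2 wpc, Lepr-ctrl mice gave 5 healthy and 5 injured endoneuria and Lepr-cKO mice 6 and 5. At 4 wpc, each genotype gave 5 healthy and 4 injured endoneuria. The 39 libraries came from 22 mice, 17 of which gave both nerves. Animals are named here by their number, with KO for Lepr-cKO and WT for Lepr-ctrl. The sample titles carry these prefixes at 4 wpc only, and the mice named WT were Leprfl/fl.

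Igf1 and Igf2 are small secreted hormones related to insulin that act on neighbouring cells as well as through the blood. Both bind the receptor tyrosine kinase Igf1r, which signals through insulin receptor substrates to the PI3K-Akt pathway, whereas Igf2r carries Igf2 to the lysosome for degradation. The Igfbp proteins bind the ligands outside the cell with high affinity, Igfbp7 being a low-affinity relative, and proteases such as Pappa release the ligand again by cutting Igfbp4. In peripheral nerve, Igf1 is known as a survival and myelination factor for Schwann cells and a growth factor for axons, and macrophages are a known source of it after tissue injury.

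Gene positions are those of GRCm38 as annotated by GENCODE. The ligands were Igf1 (ENSMUSG00000020053) at chr10:87858265-87937042 on the plus strand and Igf2 (ENSMUSG00000048583) at chr7:142650766-142666816 on the minus strand. The receptors were Igf1r (ENSMUSG00000005533) at chr7:67952827-68233668 on the plus strand and Igf2r (ENSMUSG00000023830) at chr17:12682406-12769664 on the minus strand. Igfbp2 and Igfbp5 lie next to each other on chromosome 1, Igfbp2 (ENSMUSG00000039323) at chr1:72824503-72852474 on the plus strand and Igfbp5 (ENSMUSG00000026185) at chr1:72857932-72874884 on the minus strand. Chromosome 11 holds Igfbp3 (ENSMUSG00000020427) at chr11:7206086-7213923 on the minus strand and Igfbp4 (ENSMUSG00000017493) at chr11:99041244-99054392 on the plus strand. The remaining binding proteins were Igfbp6 (ENSMUSG00000023046) at chr15:102144362-102149511 on the plus strand and Igfbp7 (ENSMUSG00000036256) at chr5:77349240-77408041 on the minus strand.

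Library totals ranged from 10905806 to 45016322 counts with a median of 27752451. The 9 Schwann cell markers were detected in all libraries and summed to 60039 to 82018 CPM (counts scaled to the size of each library) in the healthy and 9699 to 60115 CPM in the injured libraries. Lepr itself had a mean of 9.36 CPM in healthy and 53.3 CPM in injured Lepr-ctrl endoneuria at 2 wpc. In Lepr-cKO these means were 10.2 and 69.7 CPM. In injured endoneuria its log2 fold change in Lepr-cKO over Lepr-ctrl was 0.39 ± 0.29 (SE, edgeR, adjusted p = 0.939) at 2 wpc. At 4 wpc it was -0.54 ± 0.33 (adjusted p = 0.362), so its gene-level count did not clearly separate the genotypes at either time. The paper states that Lepr-cKO mice keep a shortened form of the receptor. In the study's own qPCR, Lepr was lowered in Lepr-cKO at 2 wpc. The paper describes its Lepr qPCR over the crush time course as isoform-specific, whereas the count here is taken over the whole gene. One library stood apart, the injured Lepr-cKO endoneurium of animal KO-126 at 2 wpc, in which the 7 skeletal muscle markers summed to 34450 CPM, whereas the next highest library had 25.5 CPM. In 13 libraries, that of animal KO-126 included, the 6 adipocyte markers summed to more than 50 CPM, up to 1343 CPM. Where leaving out these libraries changed a call or ended an adjusted p under 0.05 for one of the 10 genes, the value without them is given beside the result.

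The start regions of 3 of the genes that responded to injury in all 4 settings are printed here, since Igfbp4 and Igfbp7 rose and Igf1r fell in each. Each sequence is the 250 bases before the gene's RefSeq start on GRCm38.p6, read 5′ to 3′ on the gene's strand, with capitals for the matches to 3 short motifs searched on both strands, which were the TATA box (TATAAA), the GC box (GGGCGG) and the AP-1 site (TGANTCA).
Igfbp4, chr11:99040994-99041243, plus strand: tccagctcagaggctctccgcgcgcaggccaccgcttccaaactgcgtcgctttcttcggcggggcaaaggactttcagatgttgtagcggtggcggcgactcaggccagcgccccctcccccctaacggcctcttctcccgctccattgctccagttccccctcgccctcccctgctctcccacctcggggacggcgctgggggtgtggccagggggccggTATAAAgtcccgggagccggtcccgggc
Igfbp7, chr5:77408046-77408295, minus strand: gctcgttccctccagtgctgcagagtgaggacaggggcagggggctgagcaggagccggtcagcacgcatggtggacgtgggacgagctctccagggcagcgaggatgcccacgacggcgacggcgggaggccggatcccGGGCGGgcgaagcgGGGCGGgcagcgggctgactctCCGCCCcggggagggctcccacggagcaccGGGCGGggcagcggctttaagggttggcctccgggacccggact
Igf1r, chr7:67952007-67952256, plus strand: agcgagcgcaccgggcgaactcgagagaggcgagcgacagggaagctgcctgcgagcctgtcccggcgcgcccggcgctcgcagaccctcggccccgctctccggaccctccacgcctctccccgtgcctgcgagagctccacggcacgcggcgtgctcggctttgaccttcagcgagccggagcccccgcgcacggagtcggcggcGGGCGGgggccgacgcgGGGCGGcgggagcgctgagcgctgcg
The Igfbp4 window held 1 TATA box, which began 28 bases before the start, and no GC box. The Igfbp7 window held 4 GC boxes and that of Igf1r 2, and neither had a TATA box. An AP-1 site was found in none of the 3 windows. Among the windows of the other members, which are not printed, a match to this motif was found 37 bases before the RefSeq start of Igf1, in a window that lay within annotated exons, and 39 bases before 1 of the 2 RefSeq starts of Igfbp2. The N of the motif stood for any base, and the match read TGAATCA for Igf1 and TGAGTCA for Igfbp2. Among 32851 mouse promoter windows of the same length, 12.4% held the TATA box, 32.7% the GC box and 6.75% the AP-1 site. A match is a run of letters, and binding was not measured.

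Of the 10 genes, 4 to 6 were called after injury, depending on the time and the genotype. A gene was called when its adjusted p was under 0.05 and its absolute log2 fold change above 1 in edgeR's quasi-likelihood test, with Benjamini-Hochberg adjustment over all 18442 genes. In Lepr-ctrl at 2 wpc, 4 of the 10 were called higher and 1 lower in injured than in healthy endoneuria, where 19.8% of all tested genes were called higher and 14.3% lower. At 4 wpc the counts were 3 higher and 1 lower, against 20.1% and 15.9% of all genes. In Lepr-cKO, 5 were called higher and 1 lower at 2 wpc, against 20.9% and 13.4% of all genes, and 3 higher and 1 lower at 4 wpc, against 16.8% and 10.8%. The counts of lower genes thus lay near these shares in all 4 settings, and the counts of higher genes at 4 wpc lay only a little above them. The median log2 fold change over the 10 genes was 0.54, 0.56, 1.11 and 0.54 in this order, whereas over all tested genes it was 0.0778, 0.0242, 0.0965 and 0.0566. Igf1, Igfbp4 and Igfbp7 were called higher and Igf1r lower in all 4 settings. Since these are bulk libraries, fewer cells of a type and less RNA per cell cannot be told apart in any of these values.

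**Figure D1:**
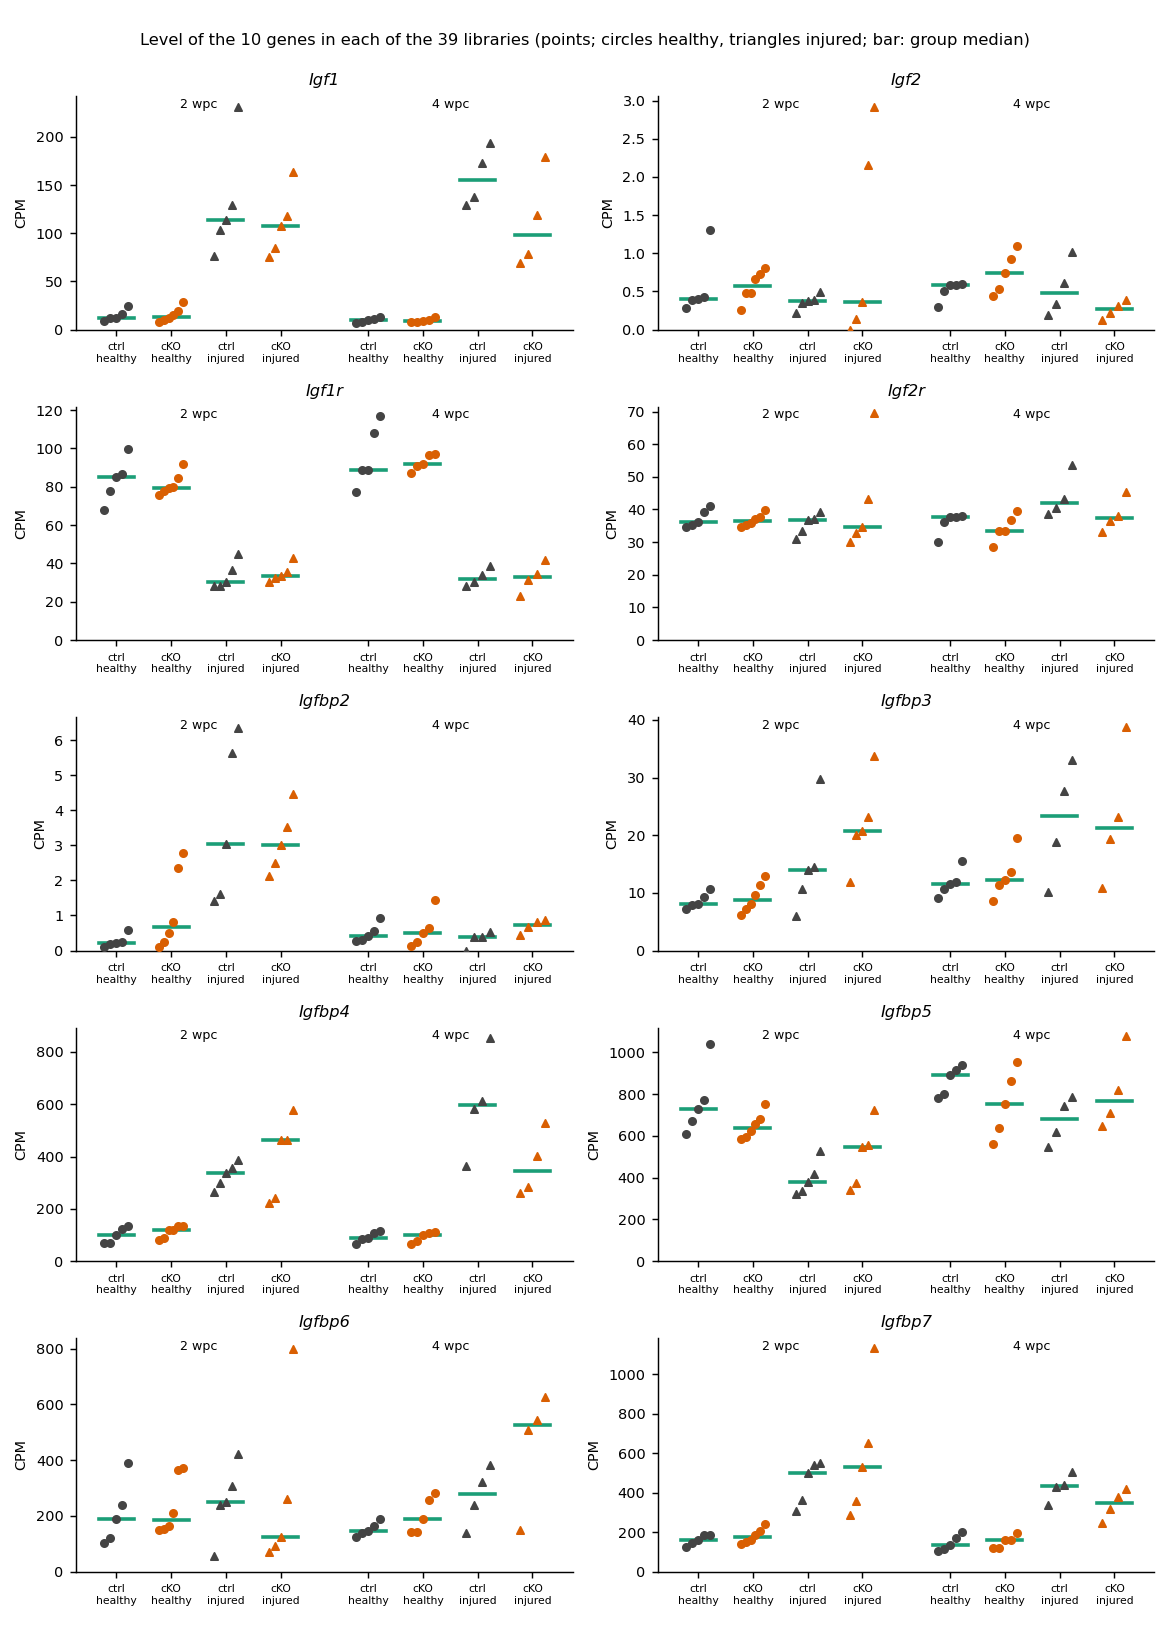
The level of each of the 10 genes in CPM (vertical axis, from 0) is shown for every library of the 8 groups, with circles for healthy and triangles for injured endoneuria, grey for Lepr-ctrl, orange for Lepr-cKO and a green bar at the group median. Igf1 lies at 6.45 to 29.1 CPM in all healthy and at 68.8 to 231 CPM in all injured libraries, and Igf1r shows the opposite separation.

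Igf1 had the largest increase among the members called in all 4 settings. In Lepr-ctrl at 2 wpc its level was 8.9, 11.5, 11.6, 16.5 and 24.9 CPM in the healthy and 76.6, 103, 114, 129 and 231 CPM in the injured endoneuria. In Lepr-cKO it was 8.2 to 29.1 CPM, with a median of 13.2 CPM, in the 6 healthy endoneuria and 75.6, 84.8, 108, 118 and 164 CPM in the injured ones. In neither genotype did a healthy library reach an injured one. The healthy levels at 4 wpc were 6.45, 7.47, 9.85, 11 and 13.2 CPM in Lepr-ctrl and 7.92, 8.17, 8.64, 9.63 and 12.7 CPM in Lepr-cKO. The injured levels were 129.2, 137.8, 172.8 and 193.5 CPM in Lepr-ctrl and 68.8, 78.2, 118.7 and 179.3 CPM in Lepr-cKO, again without overlap with the healthy ones. Its log2 fold change was 3.15 ± 0.34 (SE, adjusted p = 5.88e-10) in Lepr-ctrl and 2.83 ± 0.31 (adjusted p = 9.90e-10) in Lepr-cKO at 2 wpc, that is, 8.88-fold and 7.09-fold. At 4 wpc it was 4.04 ± 0.36 (adjusted p = 1.22e-11) and 3.56 ± 0.35 (adjusted p = 3.03e-10), that is, 16.5-fold and 11.8-fold. With each of the 39 libraries left out in turn, Igf1 was called in all 4 settings every time.

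Macrophage markers moved in the same direction as Igf1. Of 9 markers, none at 0 in any library, 6 were called higher after injury in Lepr-ctrl at 2 wpc, 9 at 4 wpc, 6 in Lepr-cKO at 2 wpc and 8 at 4 wpc, and none was called lower. Over all genes, 19.8, 20.1, 20.9 and 16.8% were called higher in the same order. The summed level of the 9 markers was 139 to 250 CPM in the healthy and 1157 to 3274 CPM in the injured Lepr-ctrl endoneuria at 2 wpc, and 129 to 277 against 1850 to 4033 CPM at 4 wpc. Over both times it was 97.1 to 319 CPM in healthy and 829 to 2518 CPM in injured Lepr-cKO endoneuria. The part of these cells in the Igf1 level was not tested.

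Igf2 was near the limit of detection, with 0 to 103 counts per library. In Lepr-ctrl its mean was 0.558 ± 0.419 CPM (SD, n = 5) in healthy and 0.365 ± 0.0965 CPM (n = 5) in injured endoneuria at 2 wpc, and the highest values of the series, 2.91 and 2.15 CPM, were those of the injured Lepr-cKO endoneuria of animals KO-126 and KO-135 at 2 wpc. The other 3 libraries of that group had 0, 0.144 and 0.367 CPM. In the fit of all libraries no comparison called Igf2, and its log2 fold change ranged from -1.50 ± 0.74 (adjusted p = 0.0859) to 0.97 ± 0.57 (adjusted p = 0.135) over the 4 injury settings. The last of these, Lepr-cKO at 2 wpc, was called at 1.29 (adjusted p = 0.0432) and 1.32 (adjusted p = 0.0205) without the injured library of animal KO-125 or KO-138, both low in Igf2, and was 0.21 (adjusted p = 0.769) without that of animal KO-126. In Lepr-cKO at 4 wpc the value was called at -1.51 (adjusted p = 0.0379) without the 2 wpc library of animal KO-138 and at -1.51 (adjusted p = 0.0121) with the compared groups alone. Of the Igf2 exon bases, 62.8% are shared on the same strand with the annotated gene Gm49394, which has 0 counts in all libraries, and whether reads on shared bases were counted for Igf2 is not given in the sources used here.

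Igf1r, the receptor through which both ligands signal, fell in injured endoneuria. In Lepr-ctrl at 2 wpc its level was 67.8, 78, 85.1, 86.6 and 99.8 CPM in the healthy and 28, 28.3, 30.2, 36.4 and 45 CPM in the injured endoneuria. In Lepr-cKO the healthy levels ran from 75.9 to 92.1 CPM with a median of 79.6 CPM and the injured ones were 30.3, 32.2, 33.5, 35.6 and 42.7 CPM. The lowest healthy library was thus above the highest injured one in each genotype. Its level at 4 wpc was 77.4, 88.6, 88.8, 108 and 117 CPM in the healthy and 28, 30.1, 34 and 38.7 CPM in the injured Lepr-ctrl endoneuria. In Lepr-cKO it was 87.2, 90.8, 91.7, 96.4 and 97.2 CPM against 22.8, 31.5, 34.4 and 41.6 CPM, with no overlap. On the log2 scale the change was -1.31 ± 0.14 (adjusted p = 3.89e-10) in Lepr-ctrl and -1.23 ± 0.13 (adjusted p = 7.87e-10) in Lepr-cKO at 2 wpc. At 4 wpc it was -1.55 ± 0.15 (adjusted p = 8.41e-11) and -1.51 ± 0.15 (adjusted p = 3.09e-10). Igf1r was thus 2.34-fold to 2.94-fold lower after injury, and the call held with each library left out.

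Part of the Schwann cell markers fell as well. Of 9 markers, 3 to 5 were called lower and 1 or 2 higher after injury, depending on the setting. Over all genes, 10.8 to 15.9% were called lower and 16.8 to 20.9% higher, so the count of higher markers lay near that of all genes. The median log2 fold change of the 9 markers was -0.64, -1.71, -0.71 and -0.64 in Lepr-ctrl at 2 and 4 wpc and in Lepr-cKO at 2 and 4 wpc. Their part in the Igf1r level was not tested.

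Igf2r, the clearance receptor of Igf2, was not called in any setting. Its mean level was 37.3 ± 2.81 CPM (SD, n = 5) in healthy and 35.5 ± 3.31 CPM (n = 5) in injured Lepr-ctrl endoneuria at 2 wpc, and 35.9 ± 3.41 (n = 5) and 44 ± 6.72 CPM (n = 4) at 4 wpc. In Lepr-cKO at 2 wpc the injured library of animal KO-126 had 69.4 CPM and the other 4 had 29.9 to 43.3 CPM. After injury Igf2r had log2 fold changes between -0.07 and 0.30, and the 4 intervals (95%) lay within -0.36 to 0.60. Per kilobase of exon, the mean level of Igf1r was above that of Igf2r in healthy Lepr-ctrl endoneuria at 2 wpc (4.97 and 4.01 CPM per kb) and below it in injured ones (2 and 3.81 CPM per kb).

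**Figure D2:**
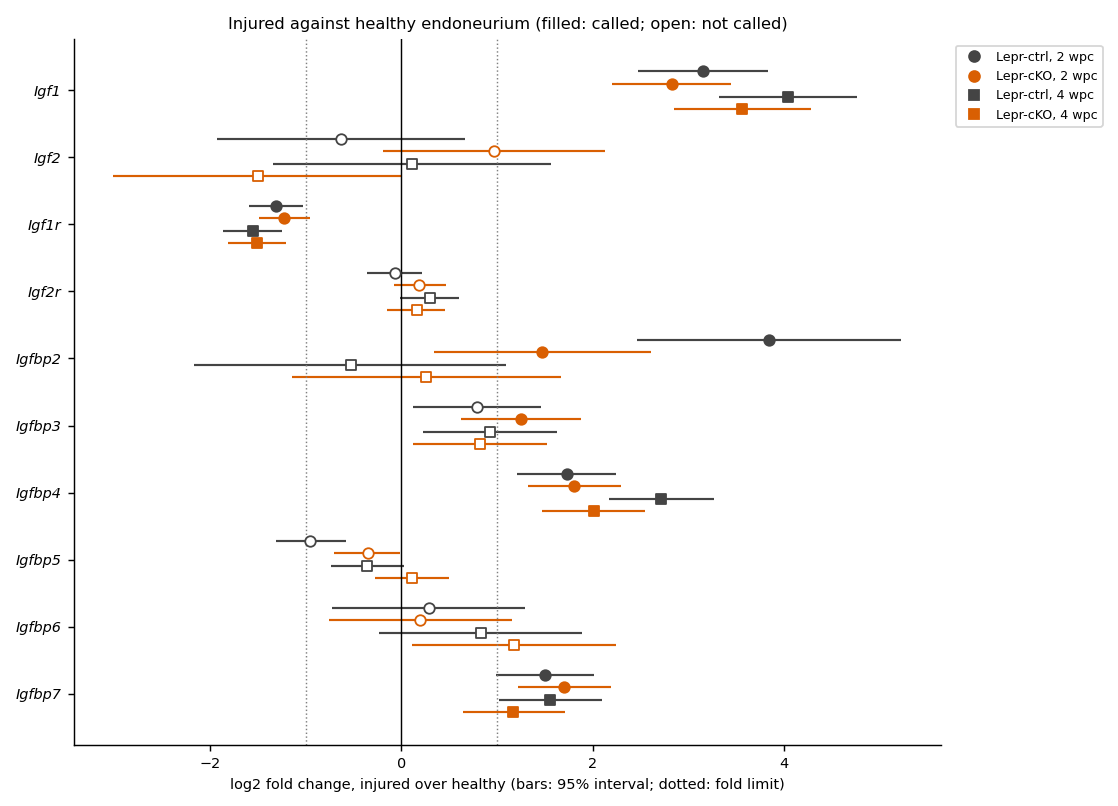
The log2 fold change of injured over healthy endoneuria (horizontal axis) is shown for the 10 genes in Lepr-ctrl (grey) and Lepr-cKO (orange) at 2 wpc (circles) and 4 wpc (squares), with 95% intervals as bars, filled symbols for called values and dotted lines at the fold limit. Igf1, Igfbp4 and Igfbp7 are filled on the right and Igf1r on the left in all 4 settings, and Igfbp2 is filled at 2 wpc only.

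Igfbp2 was called higher in injured endoneuria at 2 wpc but not at 4 wpc. In Lepr-ctrl at 2 wpc its level was 0.0909, 0.177, 0.217, 0.243 and 0.579 CPM in the healthy and 1.42, 1.6, 3.04, 5.64 and 6.33 CPM in the injured endoneuria, without overlap. These are few reads, since the healthy libraries held 4 to 13 counts and the injured ones 44 to 166 counts. In Lepr-cKO the 6 healthy endoneuria ranged from 0.103 to 2.79 CPM with a median of 0.659 CPM, and the injured ones had 2.11, 2.49, 3.01, 3.53 and 4.46 CPM. The healthy libraries of animals KO-126 and KO-136, at 2.79 and 2.35 CPM, lay within the injured range, and the other 4 lay below it. Injured levels at 4 wpc were 0, 0.382, 0.39 and 0.522 CPM in Lepr-ctrl and 0.456, 0.66, 0.808 and 0.875 CPM in Lepr-cKO. The healthy levels at 4 wpc, 0.265 to 0.927 CPM in Lepr-ctrl and 0.117 to 1.43 CPM in Lepr-cKO, overlapped with them.

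Igfbp2 had a log2 fold change at 2 wpc of 3.85 ± 0.68 (adjusted p = 9.57e-06) in Lepr-ctrl, or 14.4-fold, and 1.47 ± 0.56 (adjusted p = 0.0209) in Lepr-cKO, or 2.77-fold. With the animal as a block the latter was 2.44 ± 0.62 (adjusted p = 0.00237). The call in Lepr-cKO was lost in 3 refits. It was 1.26 (adjusted p = 0.0519) without the healthy library of animal KO-128, 1.47 (adjusted p = 0.0683) with only the 2 groups in the fit, and 1.04 (adjusted p = 0.132) without the 13 libraries high in adipocyte markers. At 4 wpc the log2 fold change was -0.53 ± 0.81 (adjusted p = 0.579) in Lepr-ctrl and 0.26 ± 0.69 (adjusted p = 0.766) in Lepr-cKO.

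The difference between the time points was tested directly. The injury response of Igfbp2 in Lepr-ctrl was lower at 4 than at 2 wpc by a log2 difference of -4.38 ± 1.04 (adjusted p = 0.00699), where 4.42% of all genes were called in either direction. Igfbp2 was the only one of the 10 genes called there, and DESeq2 called 2, the second being Igfbp4 (1.00, adjusted p = 0.0476, against 0.99 ± 0.36 and adjusted p = 0.078 in edgeR). Without the injured library of animal WT-173 at 4 wpc, edgeR also called Igfbp4 (1.17, adjusted p = 0.0357). In Lepr-cKO the difference for Igfbp2 was -1.21 ± 0.90 (adjusted p = 0.582), and none of the 10 genes was called by edgeR or DESeq2, where 1.42% of all genes were called by edgeR. Igf2 was called there without the injured library of animal KO-138 (-2.83, adjusted p = 0.0492, against -2.47 ± 0.94 and adjusted p = 0.181). Over all genes DESeq2 called 950 for Lepr-ctrl and 385 for Lepr-cKO. An unadjusted p under 0.05 was reached by 3 of the 10 for Lepr-ctrl and by 1 for Lepr-cKO. In edgeR it was reached by 4527 and 2699 of all 18442 genes in the same order.

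Igfbp4, a secreted inhibitor of Igf1 and Igf2, rose in all 4 settings. In Lepr-ctrl at 2 wpc its level was 69.1, 69.1, 100.5, 123.1 and 133.4 CPM in the healthy and 266, 297, 335, 357 and 385 CPM in the injured endoneuria. In Lepr-cKO it ranged from 78.9 to 134.9 CPM, with a median of 118 CPM, in healthy and was 222, 241, 462, 463 and 577 CPM in injured endoneuria. No healthy library reached the lowest injured one. The 4 wpc levels were 64.7, 84.6, 86.8, 107 and 116 CPM in the healthy and 362, 583, 614 and 853 CPM in the injured Lepr-ctrl endoneuria. In Lepr-cKO it was 65.3, 75.4, 99.8, 106 and 112 CPM against 262, 283, 403 and 529 CPM. The highest levels of the series were thus 3 injured Lepr-ctrl libraries at 4 wpc. Its log2 fold change was 1.73 ± 0.25 (adjusted p = 4.09e-07) and 2.72 ± 0.27 (adjusted p = 1.79e-10) in Lepr-ctrl at 2 and 4 wpc, and 1.81 ± 0.24 (adjusted p = 5.33e-08) and 2.01 ± 0.27 (adjusted p = 1.11e-07) in Lepr-cKO.

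Igfbp7, a secreted protein abundant in vessel walls, also rose in all 4 settings. In Lepr-ctrl at 2 wpc its level was 124.7, 146.2, 161.4, 182.9 and 184.1 CPM in the healthy and 309, 362, 498, 540 and 550 CPM in the injured endoneuria. In Lepr-cKO the healthy levels were 139 to 243 CPM, with a median of 174 CPM, and the injured ones 285, 359, 527, 649 and 1130 CPM. The injured library of animal KO-135 was the highest of the series. The 4 wpc levels were 105, 113, 133, 172 and 201 CPM in the healthy and 338, 427, 439 and 504 CPM in the injured Lepr-ctrl endoneuria, and 119, 120, 159, 160 and 193 against 244, 316, 379 and 418 CPM in Lepr-cKO. Healthy and injured libraries did not overlap in any setting. On the log2 scale the rise was 1.5 ± 0.25 (adjusted p = 4.26e-06) and 1.56 ± 0.26 (adjusted p = 4.61e-06) in Lepr-ctrl at 2 and 4 wpc, and 1.70 ± 0.24 (adjusted p = 1.72e-07) and 1.17 ± 0.26 (adjusted p = 0.000305) in Lepr-cKO. Without the libraries high in adipocyte markers, which leaves 1 injured Lepr-cKO library at 4 wpc, the last of these was 0.74 ± 0.45 (adjusted p = 0.19).

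Endothelial markers were followed beside Igfbp7. Of 7 markers, none at 0 in any library, 2, 4, 4 and 1 were called higher in Lepr-ctrl at 2 and 4 wpc and in Lepr-cKO at 2 and 4 wpc, against 19.8, 20.1, 20.9 and 16.8% of all genes, and none was called lower. In Lepr-cKO at 4 wpc, where Igfbp7 was called, the median of their summed level was 492 CPM in healthy and 494 CPM in injured endoneuria. Over all groups the summed level was 302 to 630 CPM in the healthy and 412 to 1879 CPM in the injured libraries, and the injured Lepr-cKO library of animal KO-135, the highest for Igfbp7, was also the highest here. Without it the log2 fold change of Igfbp7 in Lepr-cKO at 2 wpc was 1.33 (adjusted p = 1.78e-06). Of 7 mural cell markers, 3 to 5 were called lower and none higher, where 10.8 to 15.9% of all genes were called lower. The part of either cell type in Igfbp7 was not tested.

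Igfbp3, the main carrier of the ligands in blood, was called higher in 1 setting. In Lepr-cKO at 2 wpc its level was 6.2 to 12.9 CPM, with a median of 8.82 CPM, in the healthy and 11.9, 20.1, 20.7, 23.1 and 33.7 CPM in the injured endoneuria, so that only the lowest injured library overlapped with the healthy ones. Its log2 fold change was 1.25 ± 0.31 (adjusted p = 0.000735). In the other 3 settings Igfbp3 passed the adjusted p but not the fold limit, with 0.79 ± 0.33 (adjusted p = 0.0359) in Lepr-ctrl at 2 wpc, 0.93 ± 0.35 (adjusted p = 0.0192) at 4 wpc and 0.82 ± 0.34 (adjusted p = 0.0422) in Lepr-cKO at 4 wpc. These 3 values depended on single libraries in both directions. The adjusted p was lost without the injured library of animal WT-123 in Lepr-ctrl at 2 wpc (0.39, adjusted p = 0.286), of animal WT-170 in Lepr-ctrl at 4 wpc (0.69, adjusted p = 0.106) and of animal KO-169 in Lepr-cKO at 4 wpc (0.44, adjusted p = 0.3), and these were the lowest values with 1 library left out. Without the 13 libraries high in adipocyte markers Igfbp3 was at 0.30 ± 0.38 (adjusted p = 0.519) in Lepr-ctrl at 4 wpc. In Lepr-cKO at 4 wpc, where only 1 injured library was left, it was at -0.03. At 2 wpc it was at 0.93 (adjusted p = 0.0163) in Lepr-ctrl and 1.17 (adjusted p = 0.0057) in Lepr-cKO. With the animal as a block the 4 wpc values were 0.82 (adjusted p = 0.065) and 0.88 (adjusted p = 0.0534). At 4 wpc Igfbp3 crossed the fold limit in 3 of 39 refits for Lepr-ctrl, without the healthy library of animal WT-178 (1.05) or the injured ones of animals WT-173 (adjusted p = 0.0206) or WT-178 (1.17), and in 2 for Lepr-cKO, without the healthy library of animal KO-179 (adjusted p = 0.0194) or the injured one of animal KO-175 (1.03). The injury response of Igfbp3 differed between the genotypes at 2 wpc by 0.46 ± 0.45 on the log2 scale (adjusted p = 0.999), which was not called.

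Igfbp5, which binds to the extracellular matrix as well as to the ligands, was under the fold limit in every setting. Its level in Lepr-ctrl at 2 wpc was 607, 670, 728, 773 and 1039 CPM in the healthy and 319, 334, 380, 419 and 528 CPM in the injured endoneuria, without overlap, and the log2 fold change was -0.95 ± 0.18 (adjusted p = 2.45e-05). In Lepr-cKO at 2 wpc it was 586 to 753 CPM, with a median of 640 CPM, in the healthy and 342, 376, 545, 554 and 726 CPM in the injured endoneuria, and the log2 fold change was -0.35 ± 0.17 (adjusted p = 0.0692). At 4 wpc it was -0.36 ± 0.19 (adjusted p = 0.0977) in Lepr-ctrl and 0.11 ± 0.19 (adjusted p = 0.63) in Lepr-cKO. Igfbp5 in Lepr-ctrl at 2 wpc crossed the fold limit without the healthy library of animal WT-147 (-1.02), the injured library of animal WT-130 (-1.06) or the libraries high in adipocyte markers (-1.17).

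Igfbp6, a binding protein that prefers Igf2, varied widely within groups. Its level in the 5 injured Lepr-cKO endoneuria at 2 wpc was 68.9, 92.1, 124.9, 260.8 and 800.2 CPM, the last being that of animal KO-126, whose skeletal muscle and adipocyte marker levels were given above. In injured Lepr-ctrl endoneuria at 2 wpc it was 56.9, 238, 250, 306 and 422 CPM, and the healthy levels at 2 wpc were 104 to 388 CPM in Lepr-ctrl and 148 to 371 CPM in Lepr-cKO. Injured and healthy libraries thus overlapped at 2 wpc in both genotypes. At 4 wpc the injured levels were 139, 238, 321 and 383 CPM in Lepr-ctrl and 150, 508, 545 and 627 CPM in Lepr-cKO, against 125.5 to 186.7 and 141 to 283 CPM in healthy endoneuria. In the fit of all libraries Igfbp6 was called nowhere, and its log2 fold change after injury was 0.29 ± 0.49 (adjusted p = 0.624), 0.83 ± 0.52 (adjusted p = 0.165), 0.20 ± 0.47 (adjusted p = 0.724) and 1.18 ± 0.52 (adjusted p = 0.0552) in Lepr-ctrl at 2 and 4 wpc and in Lepr-cKO at 2 and 4 wpc.

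The value of Igfbp6 in Lepr-cKO moved with single libraries. Without that of animal KO-126 it was -0.76 ± 0.43 (adjusted p = 0.118) at 2 wpc, and without all 13 libraries high in adipocyte markers it was -1.22 (adjusted p = 0.0209), a change of direction. At 4 wpc it was called in 9 refits, 6 of them with 1 library left out (1.17 to 1.47). Another gave 1.68 without the libraries high in adipocyte markers, which left only 1 injured Lepr-cKO library at 4 wpc. The 6 included 1.47 (adjusted p = 0.0226) without the injured library of animal KO-177 and 1.17 (adjusted p = 0.0217) without that of animal KO-126 at 2 wpc. Without the healthy library of animal KO-179 it was 1.33 (adjusted p = 0.0481), and the other 3 were without the injured 2 wpc libraries of animals KO-128, KO-135 and WT-144. The adipocyte markers were above 50 CPM in 2 of 5 and 3 of 4 injured Lepr-cKO libraries at 2 and 4 wpc and in 2 of 5 and 2 of 4 injured Lepr-ctrl libraries, and their part in Igfbp6 was not tested.

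The make-up of the binding protein transcripts was compared per length, as the share of each gene in the summed CPM per kilobase of exon of Igfbp2 to Igfbp7. In healthy Lepr-ctrl endoneuria at 2 wpc, Igfbp6 held 37.6% ± 10.5 (SD, n = 5), Igfbp7 28.8% ± 4.29 and Igfbp5 28.1% ± 7.48, while Igfbp4 held 4.75% ± 0.676. In injured ones Igfbp7 held 50.6% ± 5.52 (n = 5), Igfbp6 28.6% ± 10.4, Igfbp4 10.7% ± 4.21 and Igfbp5 9.14% ± 1.99. The Igfbp5 share was 19.5 to 34.2% in the 5 healthy and 6.99 to 12% in the 5 injured libraries, and the Igfbp7 share 23 to 34.1% and 45.6 to 57.5%, so neither overlapped. The neighbours Igfbp6, Igfbp7 and Igfbp5 in the healthy order overlapped in their ranges, whereas each was above Igfbp4.

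In Lepr-cKO at 2 wpc Igfbp7 held 30.4% ± 2.94 (n = 6) in healthy and 53.8% ± 18.2 (n = 5) in injured endoneuria, with overlapping ranges of 24.9 to 33.3% and 31.3 to 76.2%. Igfbp5 held 22.9% ± 5.77 and 9.92% ± 2.64 there, with ranges of 15.6 to 28.7% and 7.51 to 13.2% that did not overlap. At 4 wpc Igfbp7 held 42% ± 8.72 (n = 4) in injured Lepr-ctrl endoneuria against 27.8% ± 4.32 (n = 5) in healthy ones, and 31.6% ± 10.4 (n = 4) against 27% ± 2.16 (n = 5) in Lepr-cKO, where the ranges overlapped. In injured Lepr-cKO endoneuria at 4 wpc Igfbp6 held the largest mean share, 43.1% ± 16.9, within a range of 19.8 to 59.5% that overlapped with that of Igfbp7, 21.3 to 45.9%. Igfbp2 and Igfbp3 together stayed small, each group mean being at most 0.289% for Igfbp2 and 0.905% for Igfbp3. Shares sum to a whole and therefore cannot move independently, so they are given as a description with no test. Their order over the healthy and the injured libraries changed without the division by exon length, as given at the end.

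**Figure D3:**
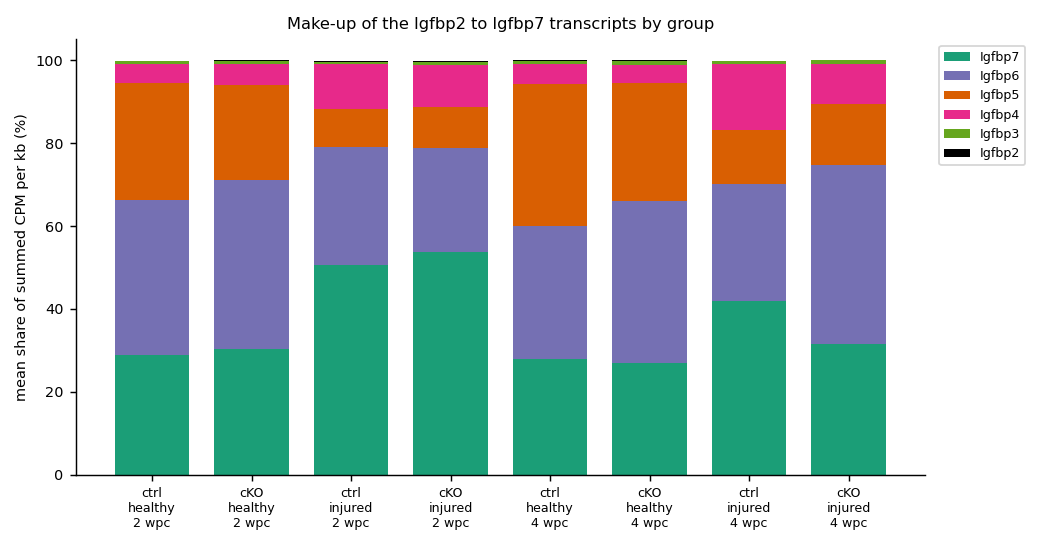
Stacked bars give the mean share (%) of Igfbp2 to Igfbp7 in their summed CPM per kilobase of exon for each of the 8 groups. The Igfbp5 part is narrower in injured than in healthy groups, from 28.1 to 9.14% in Lepr-ctrl at 2 wpc, and the Igfbp4 part is wider.

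Lepr-cKO was compared with Lepr-ctrl next, within injured and within healthy endoneuria. None of the 10 genes was called by edgeR in injured endoneuria at 2 wpc or 4 wpc, where 0.569% and 0.45% of all genes were called, or in healthy endoneuria at either time, where 0.00542% were. DESeq2 called none of the 10 in these 4 comparisons either. Over all genes in injured endoneuria at 2 wpc, edgeR called 105 higher and 0 lower in Lepr-cKO, whereas DESeq2 called 22. That Lepr-cKO group includes the library of animal KO-126 with its skeletal muscle markers. In edgeR, an unadjusted p under 0.05 was reached by 1187 and 3667 of all 18442 genes in injured endoneuria at 2 and 4 wpc. In healthy ones it was reached by 222 and 346. Among the 10 genes it was reached by 1 in injured at 2 wpc, 1 in injured at 4 wpc, 1 in healthy at 2 wpc and 0 in healthy at 4 wpc.

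Those 3 members were Igf2, Igfbp4 and Igfbp2. Igf2 had a log2 fold change in Lepr-cKO over Lepr-ctrl injured endoneuria at 2 wpc of 1.60 ± 0.64 (adjusted p = 0.565), and it was 0.82 (adjusted p = 0.942) without the library of animal KO-126. For Igfbp4 in injured endoneuria at 4 wpc it was -0.71 ± 0.28 (adjusted p = 0.148), with 3 of 4 Lepr-ctrl libraries above all 4 Lepr-cKO ones. For Igfbp2 in healthy endoneuria at 2 wpc it was 2.17 ± 0.66 (adjusted p = 1), from means of 0.261 ± 0.187 CPM (SD, n = 5) in Lepr-ctrl and 1.13 ± 1.15 CPM (n = 6) in Lepr-cKO. The Lepr-cKO libraries of animals KO-125, KO-126 and KO-136 were above all 5 Lepr-ctrl ones, and the other 3 overlapped with them.

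The tightest bounds on a genotype difference were those of the receptors. For Igf1r the 95% interval of the log2 fold change was -0.22 to 0.33 in injured endoneuria at 2 wpc and -0.32 to 0.31 at 4 wpc, and for Igf2r it was -0.05 to 0.53 and -0.53 to 0.12. For Igf1 it was -0.87 to 0.38 and -1.21 to 0.19, so a genotype difference of 2-fold in injured endoneuria was outside the interval at 2 wpc and inside it at 4 wpc. For Igfbp5 the intervals were -0.00 to 0.72 and -0.13 to 0.68, and for Igfbp7 they were -0.12 to 0.89 and -0.90 to 0.23. Igfbp3 had intervals of -0.11 to 1.21 and -0.70 to 0.78, and Igfbp4 of -0.24 to 0.76 and -1.27 to -0.14. For Igf2 they were 0.31 to 2.89 and -2.72 to 0.61, for Igfbp2 -1.36 to 0.96 and -0.62 to 2.76, and for Igfbp6 -0.92 to 1.09 and -0.37 to 1.89. Differences of 2-fold were inside at least 1 interval of each of Igfbp3, Igfbp4, Igf2, Igfbp2 and Igfbp6.

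**Figure D4:**
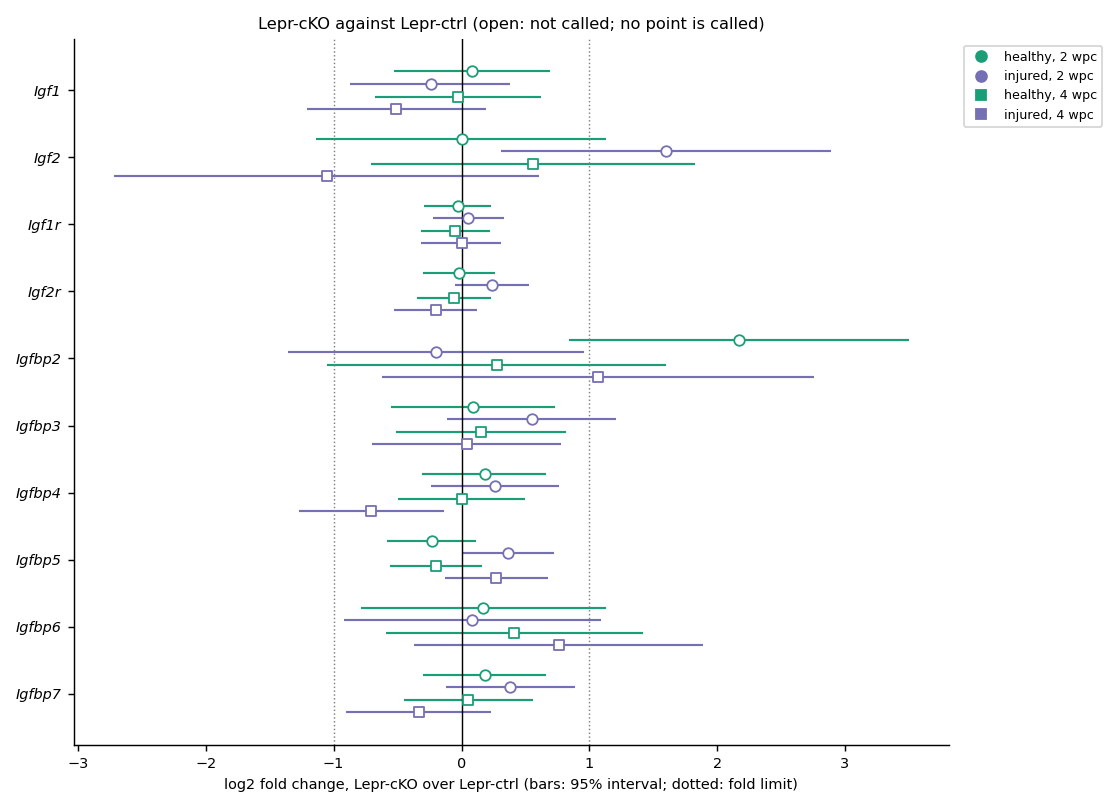
The log2 fold change of Lepr-cKO over Lepr-ctrl (horizontal axis) is shown for the 10 genes in healthy (green) and injured (purple) endoneuria at 2 wpc (circles) and 4 wpc (squares), with 95% intervals as bars and dotted lines at the fold limit. All symbols are open, since no value was called, and the bars of Igf1r and Igf2r are the shortest.

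Whether the injury response differed between the genotypes was tested as an interaction. None of the 10 genes was called by edgeR or DESeq2 at 2 or 4 wpc, where edgeR called 0% of all genes at each time and DESeq2 called 2 and 4 genes. At an unadjusted p under 0.05 there were 2 of the 10 at 2 wpc and 0 at 4 wpc, and 797 and 2013 of all 18442 genes in edgeR. Those at 2 wpc were Igfbp2, with a log2 difference of -2.37 ± 0.87 (adjusted p = 0.984), and Igfbp5, with 0.59 ± 0.25 (adjusted p = 0.999). For Igf1 the difference was -0.32 ± 0.43 (adjusted p = 0.999) at 2 wpc and -0.48 ± 0.47 (adjusted p = 0.727) at 4 wpc. For Igfbp4 at 4 wpc it was -0.71 ± 0.37 (adjusted p = 0.488).

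Genes whose 8 group means ran most like those of each member were found among the tested genes with a mean log2 CPM above 1, as the mean absolute difference of the centred log2 group means. Igf1 was nearest to Cd53 (0.10 log2 units), Abracl (0.11) and Cd48 (0.14), of which Cd53 and Cd48 encode surface proteins of leukocytes. Igfbp2 was nearest to Kif11 (0.33), Tpx2 (0.37) and Rrm2 (0.39), which act in the mitotic spindle and, for Rrm2, in nucleotide synthesis for DNA replication, although at a larger distance than any other member had. Igfbp4 was nearest to Mndal (0.09), Mpp1 (0.09) and Crybb3 (0.10), and Igfbp7 to Nme1 (0.05), Fxyd5 (0.05) and Ets1 (0.06). Igf1r was nearest to Rpusd2, Uchl1 and Gabre (0.06 each). These distances rest on 8 means and are a description. Among the members themselves, Igfbp6 and Igf2r were the nearest pair (0.26) and Igf1 and Igf1r the farthest apart (2.40). The centred means spanned only -0.14 to 0.22 for Igf2r and -0.51 to 0.91 for Igfbp6. Genes that change little lie close by this measure whatever their pattern.

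The wider IGF axis was covered by lists of 31 genes, of which 28 passed the filter. After injury, 5 were called higher and 6 lower in Lepr-ctrl at 2 wpc, 6 and 3 at 4 wpc, 7 and 6 in Lepr-cKO at 2 wpc, and 4 and 4 at 4 wpc. Over all genes, 19.8% were called higher and 14.3% lower, 20.1 and 15.9%, 20.9 and 13.4%, and 16.8 and 10.8% in the same order, so the counts of higher genes in particular lay near those of all genes. The median log2 fold change of the 28 genes was -0.02, 0.23, 0.16 and 0.17 in this order. None was called for the genotype difference in the injury response. The filter left out Igfbp1, Insrr and Pappa2.

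Downstream of Igf1r, the adaptor Irs1 and the PI3-kinase regulatory subunit Pik3r1 fell in all 4 settings. Irs1 was at 32.6 to 38.5 CPM in healthy and 1.47 to 4.77 CPM in injured Lepr-ctrl endoneuria at 2 wpc, and its log2 fold change was -3.37 ± 0.38 (adjusted p = 1.93e-09) there, -2.87 at 4 wpc and -2.88 and -2.98 in Lepr-cKO. Pik3r1 fell by 1.85 ± 0.19 on the log2 scale (adjusted p = 2.05e-10) in Lepr-ctrl at 2 wpc, from 424 to 531 CPM in healthy to 95.7 to 202 CPM in injured endoneuria, and by 1.62, 1.73 and 1.38 in the other settings. The adaptor Irs2 was called lower at 2 wpc, with -1.23 ± 0.16 in Lepr-ctrl and -1.12 ± 0.15 in Lepr-cKO, and lay at the fold limit at 4 wpc, with -1.0 and -0.98, where leaving out 1 library moved it across the limit in 18 and 3 of 39 refits. Of the 11 adaptors and kinases tested, 4 were called lower at 2 wpc and 2 at 4 wpc in each genotype, where 14.3 and 15.9% of all genes were called lower in Lepr-ctrl and 13.4 and 10.8% in Lepr-cKO at 2 and 4 wpc. The adaptor Grb10, named after its values were seen, was called higher in Lepr-ctrl at both times and in Lepr-cKO at 2 wpc. From 3 to 5 of the 11 had a log2 fold change above 0, depending on the setting.

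Pappa and Stc2, which act on ligand release, and Socs2, which acts on the growth hormone input, rose in all 4 settings. Pappa, the protease that cuts Igfbp4, was at 0.935 to 1.82 CPM in healthy and 4.8 to 22.5 CPM in injured Lepr-ctrl endoneuria at 2 wpc, with a log2 fold change of 2.71 ± 0.42 (adjusted p = 1.21e-06), and of 2.17, 2.83 and 2.25 in the other settings. Stc2, a secreted inhibitor of Pappa, was at 0.0227 to 0.217 CPM in healthy and 2.05 to 5.74 CPM in injured ones, with log2 fold changes of 5.19 ± 0.64 (adjusted p = 1.33e-08), 6.07, 5.08 and 4.30. The healthy libraries held 1 to 7 counts of Stc2 there, so the size of its fold change is uncertain. Of the 5 proteases and inhibitors, 4 were tested, Htra1 was called nowhere, and Stc1 was called higher in Lepr-cKO at 2 wpc alone, these last being named after their values were seen. Socs2, an inhibitor of growth hormone signalling, rose by 3.62 ± 0.36 (adjusted p = 1.33e-10), 3.11, 3.24 and 2.51, and was the only one called of the 5 genes of the growth hormone input, with Ghr, the growth hormone receptor, also named after its values were seen, between -0.04 and 0.53.

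H19, the imprinted non-coding neighbour of Igf2, rose in all 4 settings although Igf2 was not called. It was at 13.2 to 31.7 CPM in healthy and 100 to 346 CPM in injured Lepr-ctrl endoneuria at 2 wpc, with a log2 fold change of 2.89 ± 0.62 (adjusted p = 0.000134), and 3.67 at 4 wpc. In Lepr-cKO it was 4.39 ± 0.61 (adjusted p = 1.53e-07) at 2 wpc and 2.61 at 4 wpc, and the former was 2.67 (adjusted p = 1.63e-06) without the library of animal KO-126, in which H19 reached 1623 CPM. The mRNA-binding protein Igf2bp1 fell by 3.47 ± 0.45 (adjusted p = 3.43e-08), 2.15, 2.90 and 4.25 on the log2 scale, from 42 to 100 counts in healthy to 1 to 9 counts in injured Lepr-ctrl libraries at 2 wpc. Igf2bp3 was called lower in 3 settings, with -1.09 in Lepr-ctrl at 2 wpc and -1.0 and -1.05 in Lepr-cKO at 2 and 4 wpc, and was at -0.85 in Lepr-ctrl at 4 wpc (-1.18 with the animal as a block). Its values lay near the fold limit, and the call in Lepr-cKO at 2 wpc was lost in 14 of 39 refits with 1 library left out. Without the libraries high in adipocyte markers both 2 wpc calls of Igf2bp3 were lost, with -0.93 (adjusted p = 0.015) in Lepr-ctrl and -0.88 (adjusted p = 0.0216) in Lepr-cKO.

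**Figure D5:**
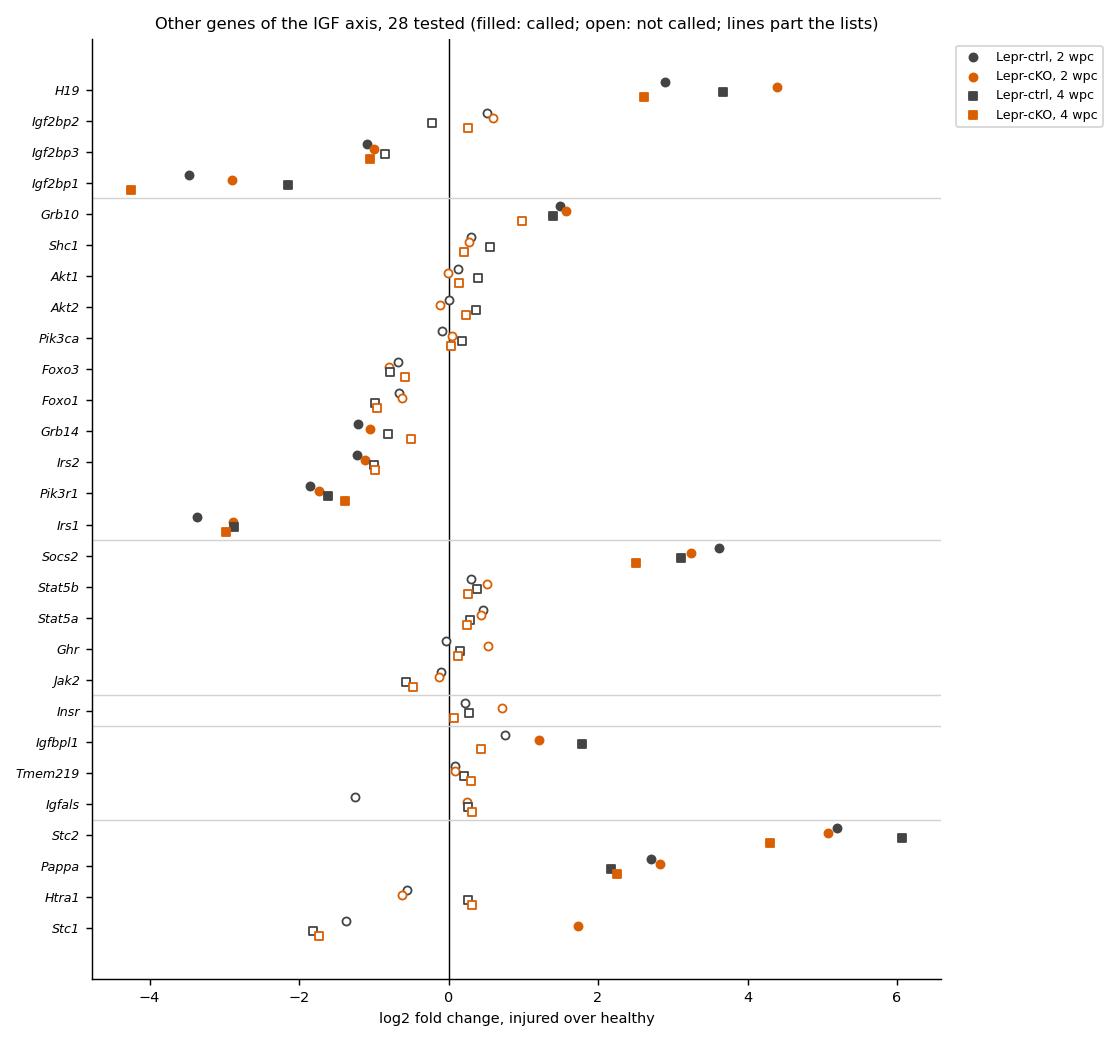
The log2 fold change of injured over healthy endoneuria (horizontal axis) is shown for the 28 tested genes of the wider IGF axis in Lepr-ctrl (grey) and Lepr-cKO (orange) at 2 wpc (circles) and 4 wpc (squares), filled where called, with lines between the lists. Stc2 lies farthest to the right at 4.30 to 6.07, and Irs1 lies at -3.37 to -2.87 in all 4 settings.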

How the data were processed

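Gene counts of 39 bulk RNA-seq libraries of mouse endoneurium were analysed. Per the study's methods and the submitters' processing notes, the authors demultiplexed single 50-base reads with bcl2fastq 2.20.0.422, aligned them to GRCm38 (Ensembl 97) with STAR 2.5, allowing 2 mismatches, and assigned them to genes with featureCounts 1.5.0-p1. The deposited values are raw counts, neither normalized nor filtered. Use of strand and of reads with several alignments is not given in the sources used here, so genes with overlapping partners are uncertain. Of the Igfbp7 exon bases, 7.03% are shared with Polr2b.

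Positions and exon lengths were taken from GENCODE mouse release 21 (GRCm38). Tests were made in R 4.3.3 with the quasi-likelihood test of edgeR 4.0.16 over all 39 libraries in a single fit. Library sizes were scaled by TMM, genes were kept by filterByExpr (minimum count 10, minimum total 15), and p-values were adjusted by Benjamini-Hochberg over 18442 genes. The SE of a log2 fold change was its absolute value divided by the square root of the test's F statistic. The 95% intervals were built from this SE, and both are approximate, most of all for genes with few counts. CPM values used the scaled library sizes, and values per kilobase were divided by the union of exon bases. Groups came from the sample titles, and no libraries held identical counts. Each library of a group came from its own mouse. The study gives 4 samples per group, whereas all libraries were used here.

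The 10 genes, the other lists and the tests were chosen with earlier results of these data known. Named genes were the members, up to 4 called genes of the wider axis in each direction per injury comparison (those with the largest change), the 3 nearest genes to each member, and Lepr. Promoter windows came from RefSeq (GRCm38.p6), which held all 10 genes.

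The fits were tested on simulated data for the genotype comparison in injured endoneuria at 2 wpc, with 200 of 18442 genes changed 4-fold. Of these, edgeR called 198 (99%) beside 3 unchanged genes, and DESeq2 198 beside 6. Only 4-fold changes were simulated, so this share does not carry over to smaller changes. It was not split by gene level, so it cannot show how often a change in genes with few counts would be called. Whether the real libraries vary like the simulated ones was not tested. Both nerves of 17 mice were sequenced, as the animal numbers in the titles show, and how the nerves of a mouse deviated together from their groups was checked over 5000 genes (r = -0.116 to 0.567, above 0.1 in 14 of 17 mice). The pairing comes from the shared animal, and a blocked fit was made as an alternative. The others were DESeq2 1.42.0, its size factors in edgeR, mitochondrial genes left out of normalization, 2 other filters, a term for sex (from Xist and Ddx3y), the compared groups only, the adjusted p alone, each library left out, and, chosen after seeing the data, 13 libraries with over 50 CPM of adipocyte markers left out.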

Additional observations from a re-analysis of the deposited data

Results flagged for a closer look

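In 80 group-by-gene sets of 4 to 6 libraries, the highest or lowest level was tested for its gap to the rest, and 3 stood out, where chance gives about 1 in 20. Igfbp6 was at 800 CPM in the injured Lepr-cKO endoneurium of animal KO-126 at 2 wpc, against 68.9 to 261 CPM in the other 4. This library also had 34450 CPM of skeletal muscle markers and 1343 CPM of adipocyte markers, whose part in the Igfbp6 level was not tested. Igf2 was at 1.3 CPM in the healthy Lepr-ctrl endoneurium of animal WT-130 at 2 wpc, that is 57 counts, against 0.279 to 0.425 CPM in the other 4. Igf2r was at 29.9 CPM in the healthy Lepr-ctrl endoneurium of animal WT-168 at 4 wpc, against 36.1 to 37.9 CPM in the other 4.

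The injury response of Igfbp2 in Lepr-ctrl differed between the time points, by -4.38 ± 1.04 on the log2 scale (edgeR, adjusted p = 0.00699). The difference was called with each of the 39 libraries left out, with a range of -4.83 to -4.01. Injured levels of Igfbp2 were higher than the highest healthy level in 5 of 5 libraries at 2 wpc and in 0 of 4 at 4 wpc. Mice of the 2 time points were different animals.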

How the results depend on the processing

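Igf1, Igf1r and Igfbp4 kept their calls in all 4 injury settings under all alternatives and with each library left out. With 1 library left out in turn, the number of the 10 genes called was 5 to 6 and 4 to 5 in Lepr-ctrl at 2 and 4 wpc, 5 to 7 and 4 to 6 in Lepr-cKO, 0 to 0 for the genotype and interaction comparisons, and 1 to 2 and 0 to 1 for the 4 minus 2 wpc difference in Lepr-ctrl and Lepr-cKO. That difference in Lepr-ctrl gave 2 calls in DESeq2 and 0 with at least 10 counts in every library, a filter that Igfbp2 and Igf2 did not pass. Igfbp6 in Lepr-cKO at 2 wpc changed from 0.20 to -1.22 without the 13 libraries high in adipocyte markers, where 26 libraries remained and the single injured Lepr-cKO library at 4 wpc was assumed to vary like the other groups. The cause was not tested.

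With the animal as a block (34 libraries of 17 paired mice), 5, 4, 6 and 4 of the 10 genes were called after injury in Lepr-ctrl at 2 and 4 wpc and in Lepr-cKO at 2 and 4 wpc, and no call of a member changed. The pairing changed calls of Igf2bp3 in Lepr-cKO at 2 wpc (-0.98, lost), of Igf2bp3 in Lepr-ctrl at 4 wpc (-1.18, gained) and of Irs2 in Lepr-ctrl at 4 wpc (-1.01, gained).

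Shares, and their order, depended on exon length by construction. Without division by exon length, Igfbp5 held the largest mean share over both the healthy and the injured libraries. With division by exon length, the largest was Igfbp6 in healthy and Igfbp7 in injured libraries. Without division by it, the mean share over healthy and injured libraries was 8.07 and 23.4% for Igfbp4, 61.6 and 32.4% for Igfbp5, 16.3 and 16.6% for Igfbp6, and 13.1 and 26.3% for Igfbp7, against 4.83 and 11.4%, 28.2 and 11.5%, 37.6 and 30.8%, and 28.6 and 45.4% with it. With 1 library left out the healthy shares were 0.0615 to 0.0776% for Igfbp2, 0.725 to 0.77% for Igfbp3, 4.76 to 4.88% for Igfbp4, 27.6 to 28.8% for Igfbp5, 36.8 to 38.1% for Igfbp6 and 28.3 to 28.9% for Igfbp7. The injured shares were 0.139 to 0.17%, 0.735 to 0.807%, 11 to 11.7%, 11.2 to 11.8%, 29.1 to 32.3% and 43.6 to 46.8% in the same order. Depth limits Igf2 and Igfbp2, whose libraries held as few as 0 counts.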
